A study of Homo sapiens with 11 samples.

Results

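SIAH2 lies on chromosome 3 and is transcribed from the minus strand. The data around it come from chromatin immunoprecipitation followed by sequencing in Ishikawa cells, an established human endometrial cancer cell line. Peaks were taken from a window of 245 kb in the hg19 build, chr3:150355000-150600000. It holds the SIAH2 body (chr3:150458914-150481263) with 103.9 kb below it and 118.7 kb above it. Any deposited peak overlapping the window counted as a member, which gave 21 of the 90458 peaks in 8 lists. Receptor peaks made up 5 of 9385, and peaks of H3K27ac (histone H3 acetylated at lysine 27, found at promoters and enhancers in use) made up 16 of 81073. The gene was selected on measured values: the strongest peak of the glucocorticoid receptor (GR) with both hormones lies in this window and has no counterpart with dexamethasone alone. That contrast is therefore described here without a test.

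All groups are the same cell line, kept in charcoal-stripped serum before treatment, and each is 1 library. Estrogen receptor (ER) was mapped after 1 h of 10 nM estradiol, or of 10 nM estradiol with 100 nM dexamethasone (the combination). GR was mapped after 1 h of 100 nM dexamethasone or of the combination. H3K27ac was mapped after 8 h of DMSO vehicle, estradiol, dexamethasone or the combination at the same doses, going by the sample labels; the protocol text mentions 1 h alone. Vehicle ER, vehicle GR and the control library were not analysed here. With 1 library a group there is no replicate spread, and every difference below is between single libraries. No expression was analysed here, so neither the SIAH2 transcript nor markers of the cell line were measured.

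SIAH2 encodes a RING-type ubiquitin ligase. It marks prolyl hydroxylases for degradation under low oxygen, which stabilises the hypoxia-inducible factor HIF1A, and it also targets the nuclear receptor corepressor NCOR1. In breast cancer cells it is known as a gene raised by estrogen. ER and GR are nuclear receptors that bind DNA when their steroid ligand is present, often at enhancers far from the genes they regulate.

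The 250 bases before the RefSeq start of SIAH2 (GRCh38.p14, chr3:150763170-150763419, minus strand, printed 5′ to 3′) are shown because H3K27ac was called at this end of the gene. Capitals mark ACGTG or its reverse complement CACGT, the core letters of hypoxia response elements.

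SIAH2 promoter: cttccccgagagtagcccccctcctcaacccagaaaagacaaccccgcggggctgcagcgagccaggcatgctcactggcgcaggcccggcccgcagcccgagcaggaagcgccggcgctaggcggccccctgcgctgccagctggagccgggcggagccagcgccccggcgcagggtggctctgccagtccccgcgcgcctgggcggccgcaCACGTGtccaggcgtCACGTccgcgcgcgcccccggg

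In this stretch the core occurred 3 times over both strands, beginning 37, 36 and 22 bases before the start. The matches at 37 and 36 overlap on opposite strands. Such a match was present in 18.5% of 35116 RefSeq promoter stretches of the same length; this motif was picked after the sequence had been read. The ER core letters AGGTCA (or TGACCT) were not found, and 12.1% of promoters hold them. The GR core letters TGTTCT (or AGAACA) were not found either, against 12.4% of promoters. GC content was 77.2%, against a median of 58% over promoters. The sequence of the receptor peaks themselves is not shown, since no hg19 genome was used here.

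Both ER lists held the same pair of sites around SIAH2, an intragenic site and a distal site, and GR with the combination was called at the distal site alone. The GR list of dexamethasone had no peak in the window. The intragenic site lay inside the gene body, 6.76 to 6.91 kb downstream of the SIAH2 start; whether it is exonic or intronic was not assigned. The distal site lay 81.1 to 81.4 kb upstream of the start. These distances use the hg19 gene span above, which is 305 bp longer than the RefSeq gene model.

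**Figure D1:**
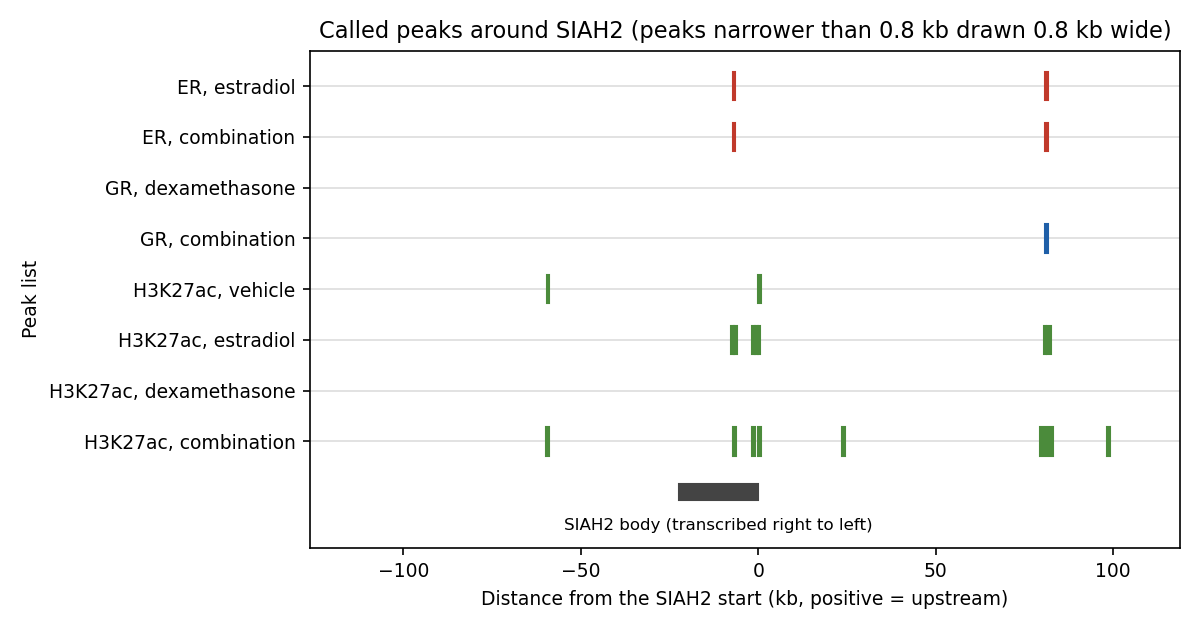
Called peaks in the window of 245 kb, by distance from the SIAH2 start in kb (x axis, positive is upstream) and by list (y axis); each bar is a called peak. Both ER lists have 2 bars, the combination GR list 1, the dexamethasone GR list 0, and the H3K27ac lists 2 (vehicle), 7 (estradiol), 0 (dexamethasone) and 7 (combination).

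At the distal site the ER peak with estradiol spanned chr3:150562350-150562610, with its summit at 150562479. The authors' pileup there was 69.9 scaled fragments, the fold enrichment over local control background 35.5 and −log10 q 94.7. This placed it at rank 69 of 3560 estradiol ER peaks, within the strongest 1.94%. Strength here and below is ranked by −log10 q within a list.

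With the combination, the ER peak at the distal site spanned chr3:150562316-150562624, with its summit at 150562491. Its pileup was 94.9, its fold enrichment 47.95 and its −log10 q 142, rank 21 of 2382 (0.882%). Ranks from lists of different lengths do not show a change in binding, so the ER peak is described only as among the strongest of each list.

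The combination GR peak at the distal site spanned chr3:150562321-150562612, with its summit at 150562495. Its pileup was 116, its fold enrichment 93.2 and its −log10 q 252, which is rank 1 of 1628. By fold enrichment it was also rank 1, while by pileup it was rank 10. The GR summit lay 4 bp from the combination ER summit and 16 bp from the estradiol ER summit. Over the 768 combination GR peaks that overlap a combination ER peak the median summit distance was 20 bp, and 13.4% of them were at 4 bp or less.

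The nearest GR peak of dexamethasone alone was 1559 kb away from the distal site, at the chromosome 3 position 152121695. That library had more usable tags than the combination GR library, 6353466 against 5206574. Per the file header, MACS2, the authors' peak caller, scaled the former down to its control of 5735043 tags. A peak below the authors' p cutoff of 1e-10 is not listed, so a missing peak does not show that GR was absent. Over the whole list, 36.9% of combination GR sites were not called with dexamethasone.

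The intragenic ER site was of middling strength. With estradiol it spanned chr3:150474350-150474478 (129 bp), with its summit at 150474427, a pileup of 27.4, a fold enrichment of 18.4 and −log10 q of 32.8. That is rank 1267 of 3560 (35.6%). With the combination it spanned chr3:150474352-150474503 (152 bp), with its summit 20 bp away at 150474447, a pileup of 30.1, a fold enrichment of 15.6 and −log10 q of 29.96. That is rank 1037 of 2382 (43.5%). GR was not called at it in either GR list.

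Merging the 4 receptor lists gave 5219 sites over the genome. The pattern of the distal site (both ER lists and the combination GR list, without the dexamethasone GR list) was found at 8.22% of them, and the pattern of the intragenic site (both ER lists and no GR list) at 28.2%. Both SIAH2 sites were thus ER sites with and without dexamethasone, and differed in whether GR was called. They are 87.8 kb apart.

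**Figure D2:**
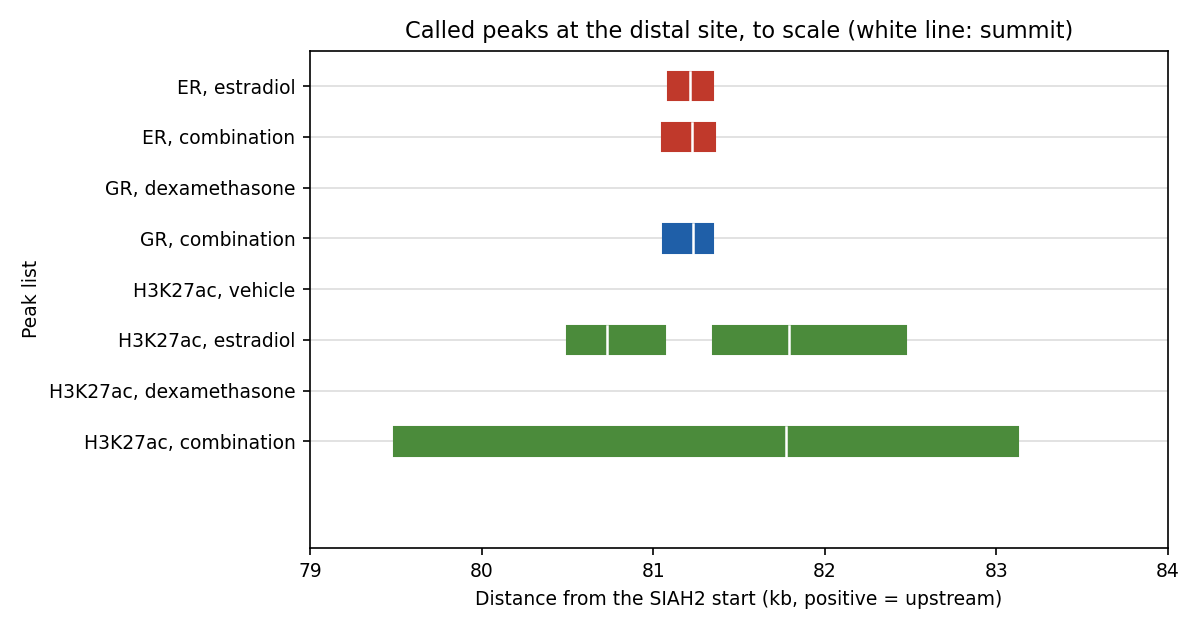
Called peaks at the distal site, to scale, by distance from the SIAH2 start in kb (x axis) and by list (y axis); white lines mark summits. The ER and GR summits fall within 16 bp of each other, in the space between 2 H3K27ac peaks of estradiol and inside 1 peak of the combination.

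The distal site was next set beside GR sites of like strength, as a description, since it is itself among those counted and was selected for this contrast. Of the 50 strongest combination GR peaks, 9 (18%, exact Clopper-Pearson 95% interval 8.58 to 31.4 over peaks, counting error only) had no dexamethasone peak, the distal site among them. All 9 lay on ER peaks of both ER lists. Of the other 41, which were also called with dexamethasone, 18 did (43.9%). Among the 100 strongest the counts were 13 of 13 and 32 of 87 (36.8%). Over all 1628 combination GR peaks, 437 of the 600 without a dexamethasone peak lay on ER peaks of both lists (72.8%), and 227 of the other 1028 (22.1%). The distal site was the strongest of those lacking a dexamethasone peak, and the next was rank 10, chr6:6703957-6704287, with a −log10 q of 201 and a fold enrichment of 74.9.

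**Figure D3:**
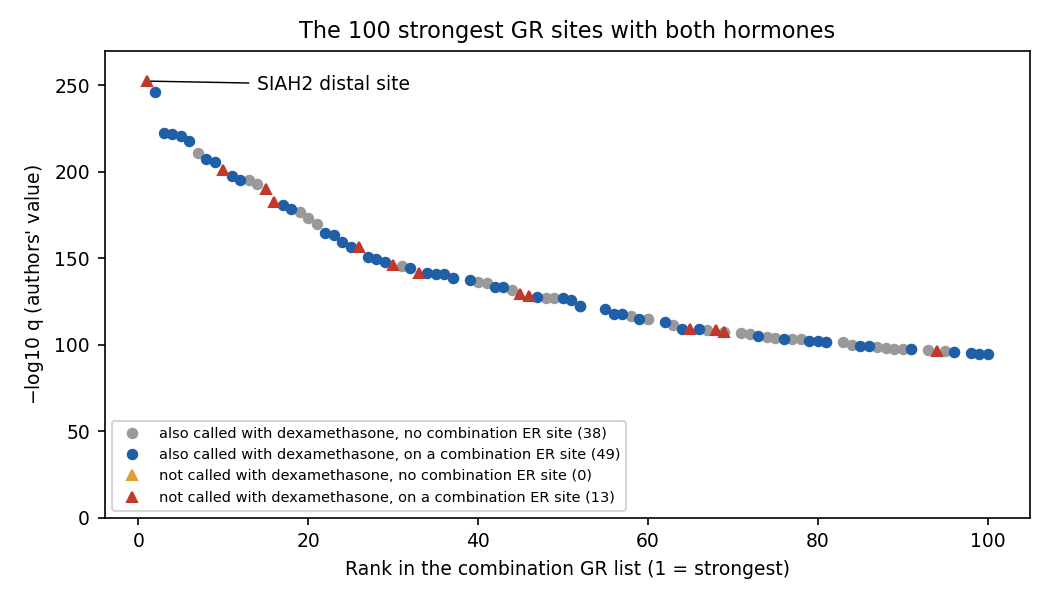
The 100 strongest GR peaks of the combination by rank (x axis) and the authors' −log10 q (y axis); triangles lack a dexamethasone GR peak and colour shows whether a combination ER peak overlaps. The SIAH2 distal site is at rank 1 with a −log10 q of 252, and all 13 triangles are on ER sites.

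H3K27ac was called in several more places in the SIAH2 window with estradiol, alone or with dexamethasone, than with vehicle, and nowhere in it with dexamethasone alone. The vehicle list had 2 peaks, the estradiol list 7, the dexamethasone list 0 and the combination list 7. They covered 574, 4865, 0 and 6709 bp of the window in that order, or 0.234%, 1.99%, 0% and 2.74% of it. Over the whole of chromosome 3 the same lists covered 0.562%, 0.751%, 0.467% and 0.686%. Usable tags numbered 18508574, 10852521, 9034395 and 9657258, and duplicates made up 18%, 19%, 33% and 22%, so the list without a peak here came from the shallowest library with the most duplicates. The part of depth and duplicates in the missing peaks was not tested. The count of 0 also depends on where the window ends. The nearest dexamethasone H3K27ac peak lay 34.1 kb below its lower edge, and no wider window was tried for H3K27ac. Genome-wide, 12.1% of the strongest 25% of combination H3K27ac peaks had no dexamethasone peak, against 74.4% of the weakest 25%.

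Merging the 4 lists gave 8 H3K27ac regions in the window, of 27111 in the genome. In 3 of the 8, estradiol and combination peaks were present and vehicle and dexamethasone peaks were not, a pattern found at 5.34% of all regions. Called with estradiol and not vehicle were 4 of 8 (21.8% of all regions), and with the combination and not vehicle 5 of 8 (14.9%). None of the 8 was called with dexamethasone, where 59.3% of all regions were not. Both regions called with vehicle lacked a dexamethasone peak, as did 54.2% of vehicle regions genome-wide. Whether a region was called with dexamethasone cannot alter the count of 3, since that list has no peak here. Disregarding that call, the pattern was found at 1942 of the 27111 regions (7.16%). The 27111 still include 1451 regions called with dexamethasone alone.

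The distal region, chr3:150560753-150564389, held the strongest H3K27ac of the window. With the combination it was 1 peak of 3637 bp, and 3.43% of the list was at least as wide. Its pileup was 96, its fold enrichment 31.6 and its −log10 q 119, rank 889 of 20873. With estradiol it was 2 peaks. The peak nearer the gene, chr3:150561760-150562332, had a fold enrichment of 12.0 and a −log10 q of 50.3 (rank 8081 of 23888). The other, chr3:150562609-150563736, had a fold enrichment of 25.3 and a −log10 q of 93.6 (rank 3270). The space of 276 bp between them held the summits of all 3 receptor peaks of the distal site. From the distal site, the nearest vehicle H3K27ac peak was 80.6 kb away, near the SIAH2 start, and the nearest dexamethasone H3K27ac peak 241.4 kb away.

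Combination peaks as strong as the distal one were rarely missing with dexamethasone. Of the 891 combination H3K27ac peaks at least as strong, 17 (1.91%, 1.12 to 3.04) had no overlapping dexamethasone peak. By the estradiol list the share was larger. It was 15.3% (502 of 3271) for peaks at least as strong as chr3:150562609-150563736. For chr3:150561760-150562332 it was 36.7% (2976 of 8101). The SIAH2 combination peak is 1 of the 17 combination peaks, and the breakdown of these that follows is a description. The 17 were set apart from the other 874 by the dexamethasone H3K27ac call itself. Their contrast therefore tests no part of either receptor. All 17 had an estradiol ER site within 1 kb, 14 had a combination GR site and 0 had a dexamethasone GR site. Of the 874 that were called with dexamethasone, 412 (47.1%) lay within 1 kb of estradiol ER, 253 (28.9%) a combination GR site and 242 (27.7%) a dexamethasone GR site. Vehicle H3K27ac overlapped 7 of the 17 and 867 of the 874. The distal SIAH2 region is thus among the 10 of 17 without a vehicle peak. Receptors were mapped after 1 h and acetylation after 8 h, so receptor binding at the later time was not measured.

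The intragenic ER site showed the same arrangement at lower strength. With estradiol, H3K27ac peaks at chr3:150473847-150474295 (fold enrichment 14.9) and chr3:150474493-150475311 (7.80) left a space of 197 bp, which held the summits of both ER peaks. With the combination a single peak, chr3:150474213-150474964 (7.64), covered the whole ER site. Neither vehicle nor dexamethasone had H3K27ac there, the nearest vehicle peak being 6.91 kb away. Both estradiol ER sites of the window therefore had their summit between 2 H3K27ac peaks with estradiol and inside 1 peak with the combination. This arrangement, counted after it had been seen here, occurred at 71 (1.99%) of all 3560 estradiol ER sites, with spaces of at most 1 kb. Only 331 (9.30%) of the 3560 had their summit in such a space with estradiol, and the 71 are among these. The estradiol and combination H3K27ac lists were called at different depths and fragment lengths (273 and 280 bp). Split or joined calls therefore do not show a change in acetylation.

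Counting H3K27ac within 1 kb, both ER sites had it with estradiol and with the combination and not with vehicle or dexamethasone. Of all estradiol ER sites, 10.7% did. The share was 21.1% (18.5 to 24.0) in the strongest 25% of that list, which holds the distal site. It was 9.73% (7.87 to 11.9) in the next 25%, which holds the intragenic site, and 5.17% (3.79 to 6.85) in the weakest 25%. It was 24.5% among the 432 sites in both ER lists with GR under the combination and not under dexamethasone, the class of the distal site. Among the 1487 sites in both ER lists and no GR list, the class of the intragenic site, it was 12.7%. These classes hold the SIAH2 sites themselves and were not matched for peak strength, so their shares are given as a description.

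**Figure D4:**
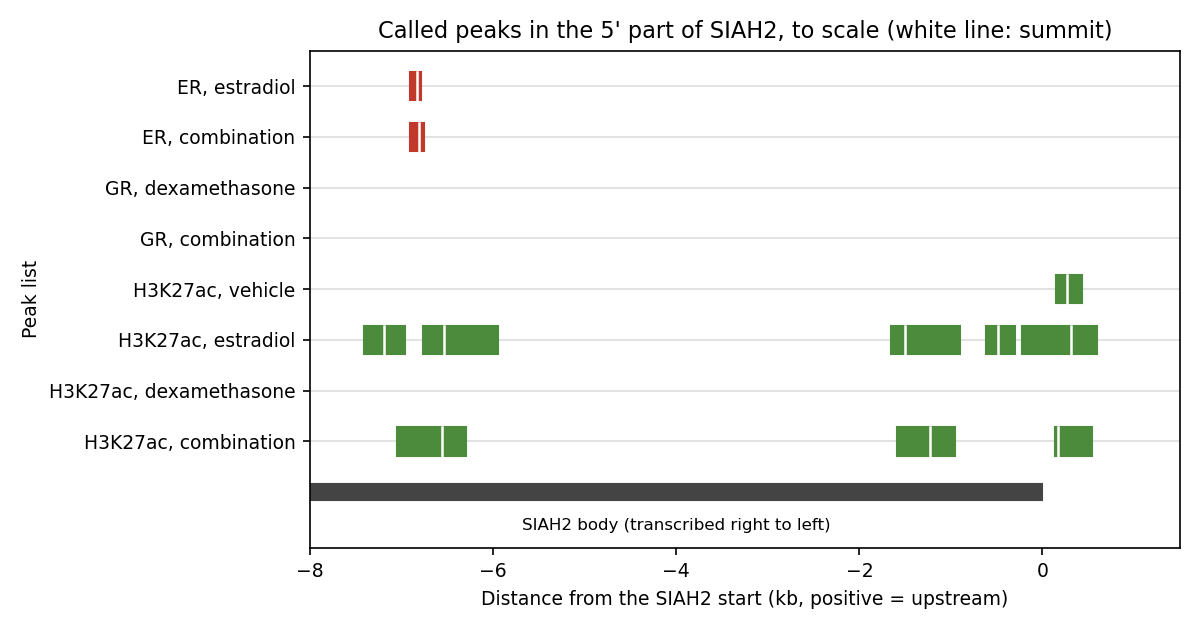
Called peaks in the part of SIAH2 nearest its start, to scale, by distance from the start in kb (x axis, negative is inside the gene) and by list (y axis); white lines mark summits. Vehicle H3K27ac has 1 peak, beside the start, while estradiol has 5 peaks and the combination 3 over this stretch.

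Around the SIAH2 start H3K27ac was called in 3 of 4 lists, all but dexamethasone, a pattern found at 21.0% of the 27111 merged regions. The start of the hg19 span was covered by the estradiol peak alone, while the vehicle and combination peaks began 0.151 kb and 0.139 kb upstream of it. Both distances are shorter than the 305 bp by which that span exceeds the RefSeq gene model. At which end the 305 bp lie was not determined, so the distances may differ at the RefSeq start. The vehicle peak was chr3:150481414-150481698 (285 bp, fold enrichment 6.83, −log10 q 20.1). The estradiol peak was wider, chr3:150481042-150481860 (819 bp, 12.3, −log10 q 50.3), and the combination peak was chr3:150481402-150481800 (399 bp, 5.45, −log10 q 11.7). The estradiol peak was at rank 8071 of 23888 in its list, the vehicle peak at 15326 of 21120 and the combination peak at 20268 of 20873. The promoter peak was thus in the stronger 50% of its list with estradiol and among the weakest of the combination list. The widths were called at different depths and fragment lengths (244, 273 and 280 bp) and were not compared further.

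Just inside the hg19 gene span, chr3:150479604-150480366 was called with estradiol (fold enrichment 11.2) and, as chr3:150479677-150480307, with the combination (8.47). The peak chr3:150480647-150480960 was called with estradiol alone (9.35), a pattern found at 14.4% of all regions. Neither had a receptor peak.

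The remaining regions lay outside the gene and away from receptor sites. The region chr3:150421833-150422141, beyond the 3′ end of SIAH2, was called with vehicle (fold enrichment 11.9) and with the combination (6.29). The combination peak there was weak, at rank 19285 of 20873 in its list, and the vehicle peak was at rank 11371 of 21120. Genome-wide, 94 of 27111 regions had this pattern (0.347%). The peaks chr3:150504906-150505420 (6.52) and chr3:150579671-150580165 (9.18) were called with the combination alone, 23.6 to 24.2 kb and 98.4 to 98.9 kb upstream of the start. Their ranks in the combination list were 20585 and 12726 of 20873. Of all regions, 4.32% were called with the combination alone.

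To set the window beside the rest of the genome, the chromosomes were cut into 12379 consecutive windows of the same length. Of these, 6.20% held at least 2 estradiol ER peaks and 4.17% at least 2 combination ER peaks. At least 7 H3K27ac peaks both with estradiol and with the combination were found in 753 windows. Of those 753, 22 had no dexamethasone H3K27ac peak (2.92%), and, counted separately, 18 had at most 2 vehicle peaks (2.39%, 1.42 to 3.75). The cutoffs are the counts of the SIAH2 window itself, so it met each condition by construction. Windows were not matched for peak strength. With H3K27ac lists of equal length the SIAH2 window held 4 estradiol and 3 combination peaks, below the cutoff of 7.

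**Figure D5:**
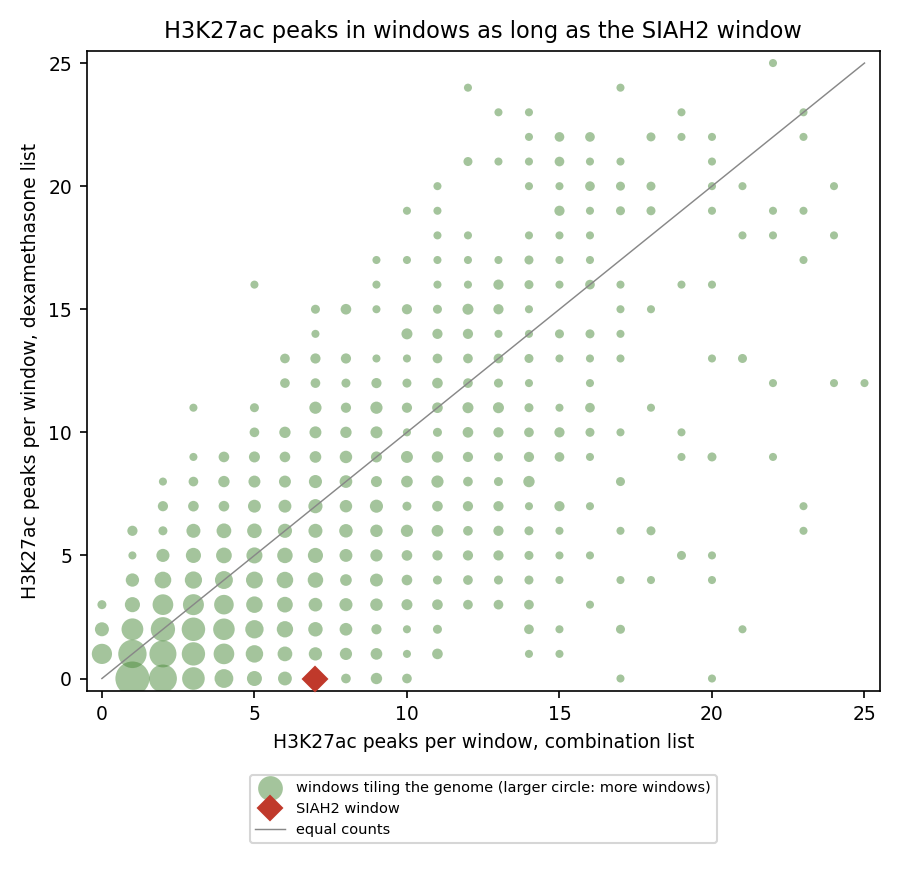
H3K27ac peaks per window of 245 kb in the combination list (x axis) against the dexamethasone list (y axis); larger circles stand for more windows, windows with 0 in both lists are left out, and 37 windows with over 25 peaks lie beyond the axes. The SIAH2 window (diamond) has 7 peaks with the combination and 0 with dexamethasone.

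At the edges of the window, the first receptor peak inside was 119.35 kb from the lower edge and the last 37.4 kb from the upper edge. The nearest receptor peaks outside were a combination ER peak at chr3:143183912-143184087 (fold enrichment 11.5) and an estradiol ER peak at chr3:151769836-151769950 (11.2). For H3K27ac, the outermost peaks inside were 66.8 kb and 19.8 kb from the edges. The nearest outside lay 33.1 kb below the window (9.18) and 1386 kb above it (22.1).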

How the data were processed

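Each of the 8 lists is 1 library. The submitters' processing notes name Bowtie 1.1.2, the hg19 build and MACS2 2.1.0.20140616. MACS2 set each library against a control with a p cutoff of 1e-10 and scaled the larger of the pair to the smaller, per the file headers. The deposited pileup is a signal, the scaled fragment coverage at the summit. The deposited fold enrichment is the ratio of that pileup to local background. The authors also deposited −log10 p and −log10 q for each peak, from its p-value and q-value. The header states that q is not calculated, but the column holds values, which were used for ranks within a list only. Which antibody or input served as control is not clear from the labels.

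Positions are 1-based hg19. The gene span came with the definition of the window, since no hg19 annotation was used here. Peaks of different lists were matched where they shared 1 bp or more, in Python 3.11.15 (pandas 2.3.3, SciPy 1.17.1), with code tested on simulated intervals. H3K27ac peaks that overlapped or touched were merged. Shares carry exact Clopper-Pearson 95% intervals. No p-value was computed between conditions. Every receptor site and H3K27ac region of the window is reported; the window itself was picked by the value of its combination GR peak. Promoter letters are from RefSeq, where SIAH2 matched 1 entry. The window, its members and the comparisons were chosen with earlier results of these data known. The breakdown of strong H3K27ac peaks, the gap count and the fixed-length windows were chosen after seeing the data. The list of hypoxia and SIAH-family genes was not analysed here, because it needs an hg19 annotation.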

Additional observations from a re-analysis of the deposited data

How the results depend on the processing

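Of 63 alternative values, 44 stayed and 19 moved. A count or covered length stayed when within 1.5 times the reported one, and a rank or share when within the 95% binomial interval of the reported one, taken for a rank as its percentage of the list. Some of the 44 could not move. A list with 0 peaks stays at 0 when it is shortened or the window narrowed, and the shortest list is unchanged at equal length. The number of receptor sites was the same with summits within 100 bp, intervals within 1 kb, the stronger 50% of each list, lists of equal length and a window reaching 200 kb from the gene. Within 50 kb of the gene the distal site falls outside, leaving 1 merged site, 1 peak in each ER list and 0 combination GR peaks. Ranked by fold enrichment, the intragenic estradiol ER peak was at 1057 and the distal one at 138. Ranked by pileup, the intragenic estradiol ER peak was at 1435, the distal combination ER peak at 49 and the combination GR peak at 10. With H3K27ac lists of equal length, 5 merged regions were left, from 1 vehicle, 4 estradiol and 3 combination peaks, covering 289 bp (vehicle) and 2969 bp (estradiol). With the stronger 50% of each list 3 regions were left, from 0 vehicle, 4 estradiol and 1 combination peak, the latter at the distal site. The share of strong combination GR sites lacking a dexamethasone peak was 20% over the 20 strongest and 13% over the 100 strongest. These sets are nested with the 50 strongest and are not independent of them. Leaving out the dexamethasone H3K27ac list, an alternative chosen after seeing the data, could not alter the count of 3 regions, since that list has no peak here. The main limits are single libraries, unequal depth between lists and values deposited only for called peaks.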

Other observations

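The SIAH2 pair of ER sites lay 87.8 kb from each other, with long stretches without receptor peaks on both sides in the lists used here. Below the intragenic site no ER or GR peak of any of the 4 lists was present for 7.29 Mb, the longest such stretch between receptor sites on chromosome 3. Above the distal site the next estradiol ER peak was 1207 kb away and the next combination GR peak 1562 kb away. Each SIAH2 ER site had the other as its nearest ER peak, and the median distance from an estradiol ER peak to the nearest other one, on either side, was 27.3 kb over the genome. For the combination GR peak the nearest other one on either side was the one at 1562 kb, against a median of 121.8 kb, and 18.4% of combination GR peaks had theirs over 1000 kb away. In the RefSeq gene order (GRCh38.p14), the protein-coding genes following SIAH2 on the side of the distal site are MINDY4B, CLRN1 and MED12L, with the antisense RNA SIAH2-AS1 next to SIAH2. On the other side the nearest protein-coding genes are ERICH6 and SELENOT. Which of these genes the distal site is nearest to in hg19 was not analysed here, and no value here ties the site to the expression of any gene.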
